A study of Mus musculus with 6 samples.

Results

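Groups of neighbouring open chromatin regions that all gained accessibility together after the loss of C/EBPα and C/EBPβ were examined in MLL-ENL–transformed mouse cells. The members were selected on measured values. Listed regions at most 12.5 kb apart were joined into chains, and every region of a chain of 3 or more in which each region had a higher level in dKO than in WT cells was taken. This gave 598 of 10016 listed regions, in 168 chains that are called loci here. Each locus was named after the protein-coding gene whose body held most of its regions, or otherwise after the nearest protein-coding transcription start site (TSS), and the name does not say which gene a locus acts on. Of these loci, 31 with 113 regions lay on chromosome 10, which is described apart, and 137 with 485 regions lay on the other chromosomes.

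Accessibility was measured by ATAC-seq, in which the Tn5 transposase cuts and tags DNA that is not covered by nucleosomes. The series comprised 6 libraries, in pairs. WT denotes fetal liver cells from Cebpa fl/fl Cebpb fl/fl mice, immortalised with a retrovirus for the leukaemic fusion MLL-ENL and grown in interleukin 3, whose labels name no vector. The dKO cells came from the same kind of culture, lacked Cebpa and Cebpb after Cre treatment, were recovered as clones and carried a GFP vector. Genotype, vector and clone therefore cannot be told apart. The third group, dKO cells with GFP and the rat C/EBPβ isoform LAP*, was not analysed here. The values are the authors' group means of normalised reads on the log2 scale, over 2 libraries in each group, with no value per library and hence no standard deviation. A difference of 1 between log2 means is a 2-fold difference, and all differences are given as dKO minus WT. The labels do not tie the libraries of a group to separate cultures.

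The deleted genes fell as the genotype label states. On the log2 scale, the listed region over Cebpa on chromosome 7 stood at 9.99 in WT cells and at -0.15 in dKO cells, and the pair of regions listed at Cebpb on chromosome 2 stood at 8.60 and 7.38 in WT cells and at 3.37 and -0.15 in dKO cells. The value -0.15 is the lowest of either group and equals 1 read in each library. Where a WT mean lay at or below 1.43, the level of 3 reads per library, a fold is given as a bound against that level. The table lists only regions that passed the authors' cutoff, a corrected P-value of 0.05, so regions that did not change between neighbours are not seen, and the identity of the cells could not be checked on markers.

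C/EBPα and C/EBPβ are leucine zipper factors that open and bind enhancers of myeloid genes. Enhancers of one gene often lie in groups within a short stretch of the chromosome, and dense groups of this kind mark genes on which the identity of a cell depends. Accessibility at such sites in blood cells is commonly associated with motifs of PU.1, RUNX, C/EBP and AP-1, the dimer of FOS and JUN proteins that is induced by growth and stress signals.

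The 200 bp at the centre of the region with the largest difference are printed for 7 loci off chromosome 10, taken from those with the most regions or the largest median difference. Gata2, Erg, Cdk6 and Trib2 are shown because of their roles in blood or leukaemia. Tle4, Slc8a1 and Prune2 were picked from loci whose region had a WT log2 mean of 1.89 or less. Gm595 (-0.15, no match), Ghitm (0.77, a RUNX match) and Slc22a27 (0.93, a RUNX match) met the same limit and are not printed. The printed windows are therefore a selection and do not show how common a motif is. The sequences are from the plus strand of GRCm38.p6 (mm10). Capitals mark matches on either strand to AP-1 (TGAGTCA), PU.1 (GAGGAAGT), RUNX (AACCACA) or C/EBP (TTACNNAA or TTGCNNAA).
Gata2, chr6:88176356-88176555: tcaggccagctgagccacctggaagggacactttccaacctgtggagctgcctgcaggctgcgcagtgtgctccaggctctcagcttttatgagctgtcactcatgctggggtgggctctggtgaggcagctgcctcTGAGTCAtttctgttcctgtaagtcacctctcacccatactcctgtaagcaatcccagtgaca
Erg, chr16:95434612-95434811: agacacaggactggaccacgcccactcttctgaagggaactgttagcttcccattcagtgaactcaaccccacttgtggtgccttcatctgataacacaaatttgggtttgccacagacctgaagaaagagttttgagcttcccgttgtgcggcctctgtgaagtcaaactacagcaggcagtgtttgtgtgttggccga
Cdk6, chr5:3494454-3494653: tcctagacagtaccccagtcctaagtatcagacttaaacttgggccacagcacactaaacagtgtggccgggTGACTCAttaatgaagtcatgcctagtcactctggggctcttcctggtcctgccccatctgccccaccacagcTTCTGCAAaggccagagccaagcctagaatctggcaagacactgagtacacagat
Tle4, chr19:14663437-14663636: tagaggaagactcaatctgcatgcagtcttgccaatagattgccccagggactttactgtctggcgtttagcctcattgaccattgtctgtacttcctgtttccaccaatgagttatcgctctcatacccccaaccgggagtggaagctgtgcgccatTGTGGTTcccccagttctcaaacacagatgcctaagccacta
Slc8a1, chr17:81704888-81705087: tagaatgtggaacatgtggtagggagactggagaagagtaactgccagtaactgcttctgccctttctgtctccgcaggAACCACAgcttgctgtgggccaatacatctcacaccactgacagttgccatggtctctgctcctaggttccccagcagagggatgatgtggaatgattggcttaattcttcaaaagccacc
Prune2, chr19:17256919-17257118: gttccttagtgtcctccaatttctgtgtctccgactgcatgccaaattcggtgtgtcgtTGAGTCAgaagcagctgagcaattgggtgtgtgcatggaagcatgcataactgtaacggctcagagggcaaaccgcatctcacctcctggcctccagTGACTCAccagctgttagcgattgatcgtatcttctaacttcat
Trib2, chr12:15656463-15656662: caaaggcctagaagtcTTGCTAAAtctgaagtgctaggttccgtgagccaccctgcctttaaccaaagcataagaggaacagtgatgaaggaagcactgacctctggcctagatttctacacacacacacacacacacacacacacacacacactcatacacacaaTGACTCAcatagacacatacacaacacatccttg

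The Gata2 and Prune2 windows hold AP-1 matches only, Cdk6 and Trib2 each hold an AP-1 and a C/EBP match, Tle4 and Slc8a1 each hold a RUNX match, and Erg holds none of the 4. A match is a string of letters and was not tested for binding.

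Most loci were small. Of the 168 loci, 118 had 3 regions, 30 had 4, 9 had 5, 5 had 6, 1 had 7, 3 had 8 and 2 had 9. They spanned a median of 12812 bp, from 2107 bp at Ghitm to 54437 bp at Zfp36l2. Of all 241 chains of 3 or more regions, 46 held only lower regions and 27 held regions of both directions, against a background in which 60.3% of all listed regions were higher in dKO. The higher direction was the criterion of choice, and nothing is read from that count. The loci took up 9.91% of the 6035 higher regions, and the chains of only lower regions took up 4.07% of the 3981 lower regions.

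The choice rested on a distance and a sign. The widest gap joined inside a locus was 12456 bp, and the closest listed neighbour left outside one was 12502 bp away. The smallest difference of a member was 0.55, and 15 members had less than 0.65. The smallest fall in the chains of both directions was -0.68, and in 21 of those 27 chains a single region was lower.

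The members had a median level of 4.84 in WT and of 6.57 in dKO on the log2 scale, with quartiles of 3.47 and 6.14 in WT and of 5.71 and 7.36 in dKO. Their differences had a median of 1.51, and of 1.51 also with regions at or below 3 reads per library in WT taken at their bound, and ranged from 0.55 to 5.85 on that basis. A gain of 2-fold or more was found in 480 of the 598 members, or 80.3%, beside 49.6% of all listed regions, lower ones included. The other 5437 higher regions had a median difference of 1.59 and gained 2-fold or more in 82.6%. These values belong to the contrast by which the members were chosen and are given as a description. The members thus differed little in the size of the gain from the higher regions outside loci, and had somewhat more reads in both groups than the others, whose medians were 4.49 in WT and 6.19 in dKO.

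Very large gains were rare in members and in the other higher regions. With regions near the bottom of the scale in WT taken at their bound, the gain was 4-fold or more in 187 members and 16-fold or more in 23. By the deposited differences, 187 of 598 members and 1749 of 5437 other higher regions gained 4-fold or more. A gain of 16-fold or more was found in 28 and 143 of them. In 22 members, spread over 19 loci, the WT level was at or below the level of 3 reads per library, and no member was that low in dKO. Of the 5437 other higher regions, 180 were that low in WT. Most regions of either kind therefore already had reads in WT.

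Regions of 1 locus gained by different amounts. Of the spread of the differences over members, 48.7% lay between loci and the rest within them, and the SD within a locus had a median of 0.63 on the log2 scale, or 0.60 with low regions at their bound. Groups this small put part of a spread between groups even when formed at random, and that part was not subtracted. The most even loci were Hpcal1, where the differences ran from 0.98 to 1.04, and Hoxb13, where they ran from 1.54 to 1.69. Among the least even was Slc8a1, where they ran from 2.40 to 5.85. In 91 loci every region gained 2-fold or more, in 74 only some did, and in Tex14, Trib1 and Mmp8 none did.

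The most open region of a locus was mostly the same in both groups. The region with the highest WT level was also the one with the highest dKO level in 134 of 168 loci, or 79.8%. Summed over its regions, in normalised reads, a locus had a median of 146.2 in WT and of 372.0 in dKO, and the fold of the sums had a median of 2.53. The region with the largest gain in reads supplied a median of 47.0% of the gain of its locus, from 18.9% in Cdk6 to 83.7% at the other end.

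**Figure D1:**
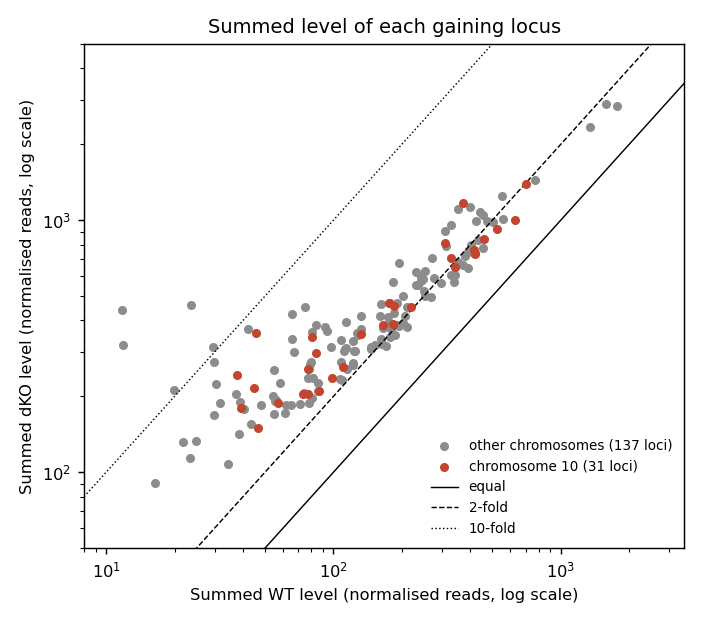
Each point is 1 of the 168 loci, with the summed WT level on the x axis and the summed dKO level on the y axis, both as normalised reads on log scales; chromosome 10 is in red and lines mark equal, 2-fold and 10-fold levels. All points lie above the line of equality, as the choice of members fixes, and 131 loci have a sum at least 2-fold higher.

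The 8 loci taken as those with the most regions off chromosome 10 were named after Zfp36l2, Sgk3, Cdk6, Cd33, Tle4, Gata2, Tmem202 and Hcst, with 6 to 9 regions each. Ties went to the larger median difference, which left out Unc93b1 with 6 regions and a median of 0.96. For each of these loci, the region with the largest difference and the region with the highest dKO level are given. The plot of every region in the named loci shows all values.

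**Figure D2:**
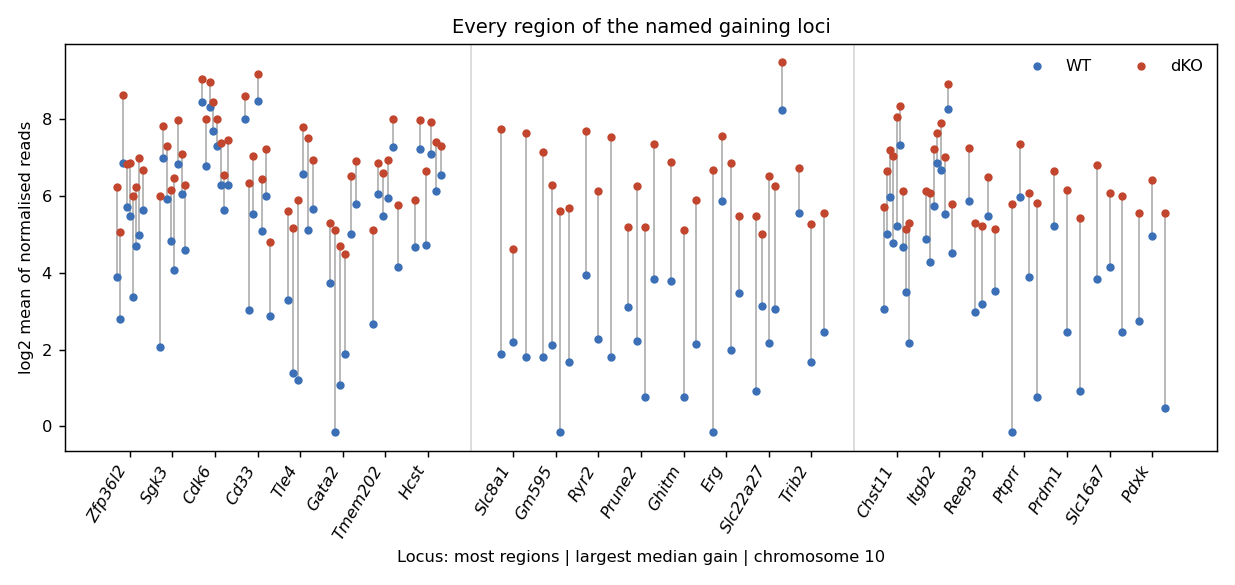
Each column is 1 of 23 named loci, and each vertical line is 1 region in genomic order, joining its WT mean (blue) and dKO mean (red) on the log2 scale of normalised reads. The left block holds the loci with the most regions, the middle block those with the largest median difference, and the right block those on chromosome 10; the lowest WT value, -0.15, occurs once each at Gata2, Gm595, Erg and Ptprr.

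Zfp36l2 encodes a protein that binds AU-rich elements and promotes the decay of their mRNAs. Its locus on chromosome 17 held 9 regions over 54437 bp, all outside the gene, of which the nearest lay 25979 bp from the start site. The region with the highest dKO level, chr17:84116241-84117097, went from 6.87 in WT to 8.63 in dKO, and the region with the largest difference, chr17:84135272-84135627, had 3.38 and 6.00. All 9 regions gained between 1.05 and 2.62, and 3 of them held an AP-1 match. The region of the largest gain overlaps an exon of the long non-coding RNA gene AC132455.2.

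Cdk6, the cyclin-dependent kinase of the G1 phase on which MLL-fusion leukaemias depend, held 8 regions within its introns over 26706 bp. All 8 lay above the median WT level of the members, with log2 means from 5.64 to 8.45, and rose to between 6.56 and 9.05. The differences were small, from 0.60 to 1.22. The largest was in the region whose centre is printed above, with 6.79 in WT and 8.01 in dKO, and the most open region had 8.45 and 9.05. The 8 regions therefore rose by similar small amounts from a high level. In the gene body and 10 kb to either side, 14 regions were listed in all, and beside the members 4 were higher and 2 were lower in dKO, so the gene did not gain throughout.

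Gata2 encodes a transcription factor of stem cells, progenitors and mast cells. Its 6 regions fell into 4 upstream regions that were low in WT and 2 at its start sites that were not. The upstream log2 means in WT were 3.73, -0.15, 1.07 and 1.89, and those in dKO were 5.31, 5.12, 4.71 and 4.49. The second of these, which holds the printed AP-1 match at chr6:88176356-88176555, was at least 12.9-fold higher in dKO. The regions at the start sites had 5.00 and 5.80 in WT and 6.53 and 6.91 in dKO, so the upstream regions in dKO did not reach the level of the start sites.

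Cd33, which encodes a myeloid receptor for sialic acid, gave its name to 7 regions that reached the neighbouring gene Zfp658. A region at an annotated Cd33 start site had 8.01 in WT and 8.60 in dKO, the highest region had 8.47 and 9.17, and an intronic region at chr7:43538547-43538924 had 3.02 and 6.33. The 6 regions at Hcst, Tyrobp and Nfkbid gained between 0.76 and 1.92. Hcst and Tyrobp encode the adaptors DAP10 and DAP12, through which activating receptors of myeloid and NK cells signal. The largest difference was at the start of Tyrobp, with 4.73 in WT and 6.65 in dKO, and the highest region had 7.23 and 7.99.

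Sgk3, a kinase activated downstream of PI3-kinase, held a locus of 8 regions and a second locus of 4. In the first, the largest difference was 1425 bp from the start site, with 2.07 in WT and 6.00 in dKO, while the highest region, in an intron, had 6.84 and 7.98. A pair of neighbours among these 8 regions shares a base, so that they may be parts of 1 region. The 6 regions named after Tmem202 also covered Hexa, the gene of a lysosomal hexosaminidase subunit. The region at the start site of Hexa was the highest, with 7.27 in WT and 8.0 in dKO, and an intronic region with an AP-1 match had 2.66 and 5.12.

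Tle4, a Groucho-type co-repressor that is recruited by RUNX and other factors, lay nearest to 2 loci in the gene-poor DNA beside it, with 6 and 4 regions. In the larger locus the region at chr19:14663376-14663699 had 1.20 in WT and 5.90 in dKO and was at least 22.1-fold higher, while the highest region had 6.57 and 7.81. The smaller locus had WT means from 1.81 to 5.19 and dKO means from 5.52 to 6.92. All 10 regions were intergenic.

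**Figure D3:**
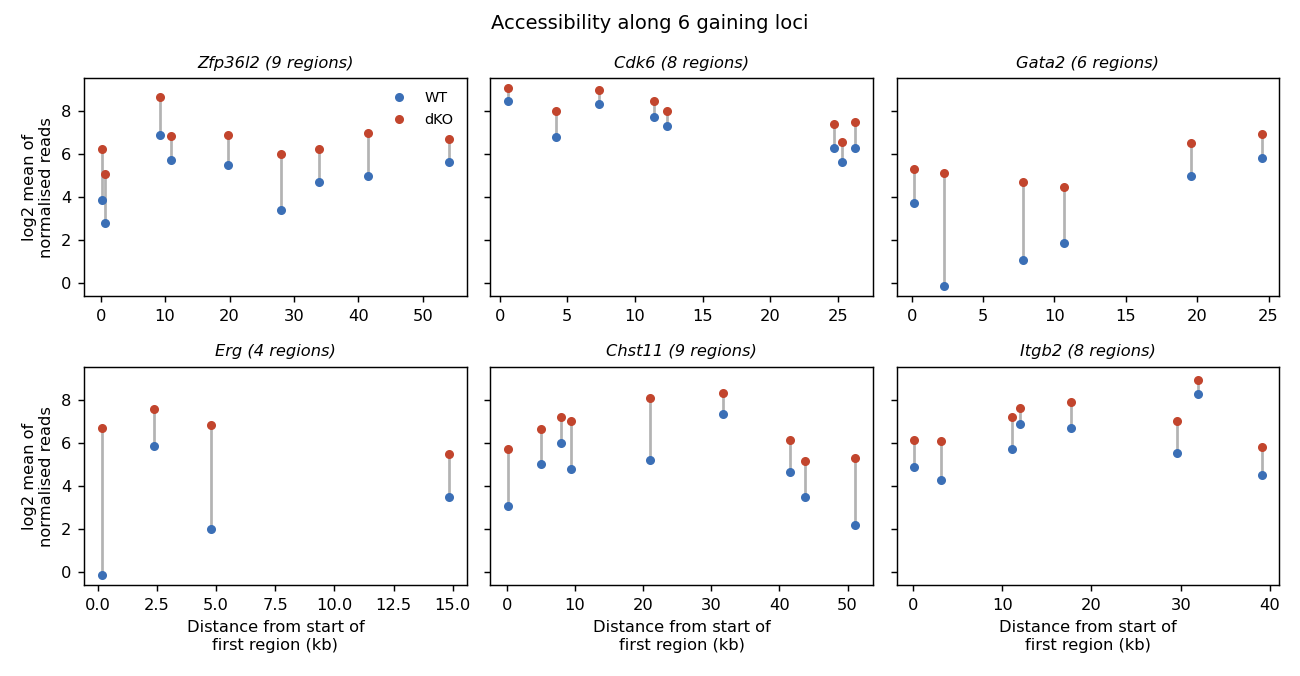
Each panel is 1 locus, with the distance of a region's centre from the start of the first region on the x axis in kb and the log2 mean of normalised reads on the y axis; blue is WT, red is dKO and a line joins the values of a region. At Cdk6 and Itgb2 all regions shift by 1.80 or less, while at Gata2 and Erg regions near the bottom of the axis in WT lie beside regions that were already open.

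The loci with the largest median differences off chromosome 10 held 3 to 5 regions, and several also held a region that was open in WT. At Slc8a1, the gene of a sodium-calcium exchanger, 3 intronic regions had log2 means of 1.89, 2.21 and 1.81 in WT and of 7.74, 4.61 and 7.65 in dKO. Their median difference was 5.84 and the summed level was 37.1-fold higher. At Ryr2, a calcium release channel of muscle, 3 regions had 3.94, 2.27 and 1.81 in WT and 7.69, 6.13 and 7.54 in dKO, a 19.5-fold higher sum. These genes are best known from muscle, and no statement on their expression can be drawn from accessibility.

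Gm595 on chromosome X held 4 regions with WT means from -0.15 to 2.11 and dKO means from 5.61 to 7.14. The largest difference was in an intron at chrX:48874818-48875117, with -0.15 in WT and 5.61 in dKO, at least 18.1-fold higher, and the highest region had 1.81 and 7.14. The Ghitm locus lay 982121 bp from the start of the gene that names it, so the name is only a position. The largest difference of its 3 regions was from 0.77 in WT to 5.12 in dKO, at least 12.9-fold, and the highest region had 3.78 and 6.88.

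Erg encodes an ETS factor that haematopoietic stem cells require. Its 4 intronic regions had log2 means of -0.15, 5.88, 2.00 and 3.47 in WT and of 6.67, 7.57, 6.85 and 5.47 in dKO. The first was at 1 read per library in WT and at least 37.7-fold higher in dKO, and it began 2058 bp before a region that was open in WT. That open region held 2 AP-1 matches and 1 RUNX match, and the other 3 held none of the 4 motifs.

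Trib2 encodes a pseudokinase that drives the degradation of C/EBPα. The closest of its 3 regions was 158715 bp from the start site, and they had 5.55, 1.68 and 2.46 in WT and 6.73, 5.26 and 5.57 in dKO. At Prune2, 4 regions had WT means from 0.77 to 3.84 and dKO means from 5.19 to 7.36, the highest region having 3.84 and 7.36. The printed window with 2 AP-1 matches belongs to the region with the largest difference, which had 0.77 and 5.19 and was at least 13.5-fold higher. Near Slc22a27, of the organic anion transporter family, 4 regions with WT means from 0.93 to 3.14 lay beside 1 with 8.25, which rose to 9.48. The low regions of that locus reached between 5.00 and 6.52, and the largest difference was from 0.93 to 5.47, at least 16.4-fold.

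The lists of blood and leukaemia genes were searched for members. Of 170 listed genes found in the annotation, 82 had a listed region in the gene body or within 10 kb, and 10 had a member there. Among all protein-coding genes, 5433 had a listed region and 161 had a member. Of the genes with a listed region, a member was thus present at 12.2% of the listed genes and at 2.96% of all protein-coding genes. The lists were compiled with earlier results of these data known, and nothing particular is read from these shares. Counted by region, the listed genes had 35 members, 84 other higher regions and 36 lower regions.

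Of 23 stem-cell and MLL leukaemia genes, Erg, Gata2 and Cdk6 held a member, with 15 members in all beside 24 other higher and 12 lower regions. The lower regions lay at Etv6 (3), Hoxa9 (2), Prdm16 (2), Fli1 (2), Cdk6 (2) and Hoxa10 (1). Of 14 genes that the study names as repressed by HOXA9 together with C/EBPα, Gata2, Scin and Havcr2 did, with 8 members beside 7 other higher regions and 1 lower region at Hgfac. Scin, which severs actin filaments, had 3 regions upstream of its start site with log2 means of 2.79, 3.44 and 2.00 in WT and of 5.06, 6.21 and 4.60 in dKO. Havcr2, which encodes the inhibitory receptor TIM-3, had 4.93, 3.46 and 2.75 in WT and 6.40, 5.06 and 6.05 in dKO. All 6 regions thus had WT means under 5 and gained 1.47 or more.

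Csf1r, the receptor of macrophage colony-stimulating factor, was the member in both the cytokine receptor list (1 of 24 genes) and the monocyte list (1 of 15). Beside its 3 members the cytokine receptor list had 10 other higher and 8 lower regions, the latter at Il10ra (2), Csf3r, Il1r1, Il2ra, Socs1, Socs3 and Cish, and the monocyte list had 9 other higher and 1 lower, at Klf4. The 3 regions at Csf1r had 5.50, 3.19 and 2.79 in WT and 6.58, 5.17 and 5.34 in dKO. The study reports lower Csf1r expression in dKO than in WT cells, and the gain in accessibility is no measure of expression. Of 14 neutrophil granule genes only Mmp8, a collagenase, held members, with 6.61, 7.94 and 5.62 in WT and 7.35, 8.59 and 6.60 in dKO. These differences of at most 0.98 were among the smallest of any locus. The neutrophil list also had 5 other higher regions and 2 lower ones, at Mpo and Ctsg.

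Among 16 adhesion genes, Itgb2, Itga6 and Selplg held members, 9 in all, beside 11 other higher regions and 1 lower region at Itga5. Itga6, an integrin α chain that binds laminin, named 3 regions of which 1 lay within 10 kb of the gene, and that region had 3.71 in WT and 5.26 in dKO. The region closest to Selplg, the gene of a selectin ligand, was 1 of 4 at Tmem119, with WT means from 4.09 to 5.67 and dKO means from 5.68 to 7.16.

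Of 18 mast cell and basophil genes, Gata2 held members, 3 in all, beside 10 other higher regions and no lower one. Il1rl1, which encodes the interleukin 33 receptor ST2, was the nearest start site of 3 regions, 16830 to 35973 bp away and hence outside the 10 kb limit, with 2.64, 3.96 and 1.63 in WT and 5.33, 5.67 and 5.39 in dKO. No member lay at any of the 19 genes of AP-1 and related factors, the 14 erythroid and megakaryocyte genes found in the annotation, the 14 T and NK cell genes or the 10 B cell genes. Listed regions of any direction were present at 7, 5, 0 and 3 of those genes, with 6, 3, 0 and 2 higher and 4, 3, 0 and 4 lower regions.

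Some further loci were chosen after their values were seen, because of the role of their gene. At Runx2, the regions had 5.70, 6.98 and 2.44 in WT and 6.92, 8.32 and 6.99 in dKO, and the lowest in WT, which gained 4.55, held an AP-1 match. Near Runx3, the regions had 1.73, 5.02 and 4.33 in WT and 6.08, 6.17 and 5.77 in dKO. Both genes encode RUNX factors. At Zfp36l1, a relative of Zfp36l2, a region at the start site rose from 3.11 to 8.06 and made up 78.5% of the gain of its locus. Near Trib1, a relative of Trib2, the differences of 3 highly open regions were 0.88, 0.71 and 0.99.

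Chromosome 10 held more loci than any other chromosome, 31 of 168 or 18.5%, although 10.4% of all higher regions and 7.66% of all listed regions lay on it. Of its 629 higher regions, 17.97% lay in loci, against 8.97% on the other chromosomes together. Chromosomes 19 and 17 were similar in that respect, with 17.4% and 15.1%. Per length, chromosome 19 had 24.4 loci per 100 Mb and chromosome 10 had 23.7, and no other chromosome exceeded 13.7. The loci of chromosome 10 were spread over its length, with 5, 3, 9, 7 and 7 in 5 successive stretches of equal length.

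**Figure D4:**
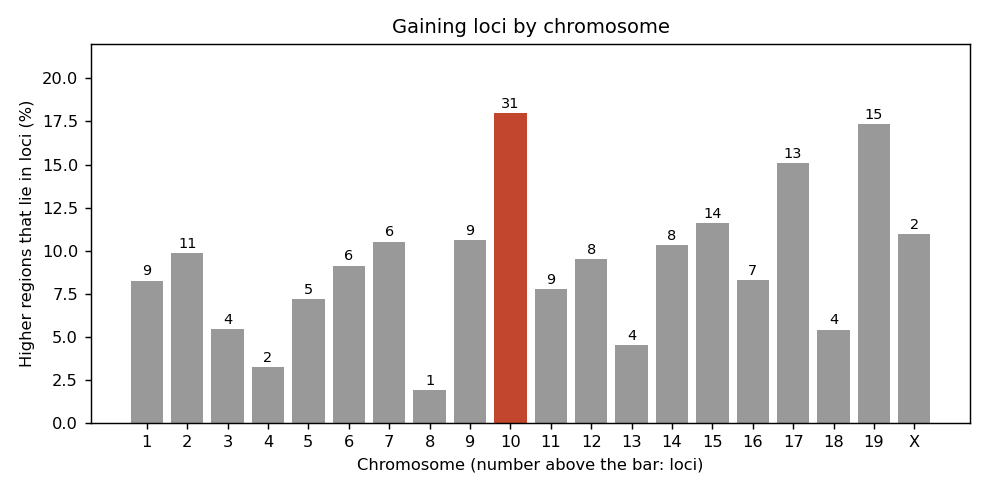
Bars give, for each chromosome, the share in percent of its higher regions that lie in loci, with the number of loci above each bar and chromosome 10 in red. Chromosome 10 (17.97%), chromosome 19 (17.4%) and chromosome 17 (15.1%) stand above the others, and chromosome 8 has 1 locus.

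Beside these, 138 regions of chromosome 10 were lower in dKO, and 1 chain of only lower regions and 1 of both directions were found there. The members on chromosome 10 had a median difference of 1.55, against 1.51 elsewhere. Their median levels were 4.82 in WT and 6.47 in dKO, against 4.86 and 6.59. The levels of members thus differed little between chromosome 10 and the rest, while a larger share of its higher regions lay in loci. The balance of directions also differed, with 629 higher and 138 lower regions on chromosome 10, against 6035 and 3981 in all. Chromosome 19 had 317 and 121, and chromosome 17 had 325 and 146. Whether the shares in loci exceed what this balance and the density of regions give was not tested. A change in the number of copies of a chromosome and a change in accessibility cannot be told apart in normalised reads.

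Chst11, a sulfotransferase that modifies chondroitin, and Itgb2, the β2 integrin chain of leukocytes, had the most regions on chromosome 10, with 9 and 8. At Chst11 the region at the start site was the highest, with 7.34 in WT and 8.34 in dKO, and the largest difference was in an intron at chr10:83004480-83004778, with 2.17 and 5.31. At Itgb2 all differences lay between 0.66 and 1.80. Its highest region, chr10:77550861-77551376, had 8.27 in WT and 8.93 in dKO, and the largest gain was upstream of the gene, from 4.28 to 6.08. Among the 5 regions named after Reep3, the nearest of which was 93938 bp from its start site, the differences ran from 1.03 to 2.32, with a highest region of 5.88 in WT and 7.25 in dKO and a largest gain from 2.98 to 5.30.

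The largest median differences on chromosome 10 were found at Prdm1, Ptprr, Slc16a7 and Pdxk. Near Prdm1, which encodes the repressor BLIMP1, 1 of 2 loci had 5.22, 2.46 and 0.93 in WT and 6.65, 6.16 and 5.44 in dKO. Its last region was at least 16.1-fold higher. Ptprr, a phosphatase of MAP kinases, also held 2 loci, and in the one with 4 regions the WT means were -0.15, 5.98, 3.88 and 0.77 and the dKO means 5.79, 7.36, 6.09 and 5.81.

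At Slc16a7, a monocarboxylate transporter, 3 intronic regions had 3.83, 4.16 and 2.46 in WT and 6.82, 6.07 and 5.99 in dKO. Near Pdxk, the kinase of vitamin B6, they had 2.75, 4.96 and 0.49 in WT and 5.57, 6.41 and 5.57 in dKO, and the last was at least 17.6-fold higher. At Prdm1, Ptprr and Pdxk a region with a WT mean of 4.96 or more thus lay beside one at or below the level of 3 reads, while no region of Slc16a7 was that low.

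The rule used the distance between regions and not their place relative to genes or their sequence. Intervals given are 95% Wilson intervals, which cover counting error only, and neighbouring regions are not independent, so they are too narrow. Of the members, 22.9% (19.7 to 26.4%) lay within 1 kb of a TSS, against 17.5% (16.6 to 18.6%) of the other higher regions and 19.1% of all listed regions. On chromosome 10 the order was the reverse, with 18.6% (12.5 to 26.7%) of members and 24.8% (21.3 to 28.7%) of the other higher regions, while the other chromosomes had 23.9% (20.3 to 27.9%) and 16.8% (15.8 to 17.9%). The intervals overlap on chromosome 10, and whether it differs from the rest was not tested. With protein-coding start sites alone the shares were 16.1% (13.3 to 19.2%) of members and 13.5% (12.6 to 14.5%) of the other higher regions, whose intervals overlap. Introns held 40.1% of members, intergenic DNA 39.0% and exons 20.9%, beside 41.5%, 39.6% and 18.9% of the other higher regions.

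Many loci joined a promoter with distal sites. In 73 loci some regions lay within 1 kb of a TSS and others did not, in 87 none did and in 8 all did. In those 73 loci the median difference of the regions at start sites was below that of the distal regions in 43 and above it in 30. Members at start sites were more open, with a median level of 5.85 in WT and 7.22 in dKO, than distal members, with 4.59 and 6.45. Gains at distal sites had a median of 1.59 and those at start sites 1.30, and the other higher regions showed 1.64 and 1.30.

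The bodies of genes did not bound the loci. In 63 loci all regions lay in the body of the gene that named it, in 58 none did and in 47 some did, and in 27 loci every region was 50 kb or more from any protein-coding start site. Members were as wide as other higher regions, with medians of 402.5 and 404.0 bp, and their median GC content was 50.5% against 49.5%.

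An AP-1 match was present in the central 200 bp of 133 members, or 22.2% (19.1 to 25.7%), against 27.1% (25.9 to 28.3%) of the other higher regions, 4.65% of the lower regions and 17.9% of all listed regions. The members' interval lay below that of the other higher regions. Off chromosome 10 the shares were 21.03% (17.6 to 24.9%) and 27.6% (26.4 to 28.9%), and on it 27.4% (20.1 to 36.3%) and 22.1% (18.7 to 25.9%), with overlapping intervals. Whether chromosome 10 differs from the rest in this respect was not tested. Windows 2 kb beside the members held a match in 3.18%.

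A PU.1 match was found in 13.5% (11.0 to 16.5%) of members and 12.9% of the other higher regions, beside 9.17% of all listed regions. A RUNX match was found in 13.5% and 13.7%, beside 11.9% of all listed regions. A C/EBP match was found in 19.7% (16.7 to 23.1%) of members, 20.3% of the other higher regions and 28.4% of all listed regions, while the lower regions held one in 40.7%. In windows 2 kb beside the members the C/EBP share was 17.8% (15.6 to 20.1%), an interval that overlaps that of the members. Of PU.1 and RUNX, those windows held 1.50% and 4.77%.

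**Figure D5:**
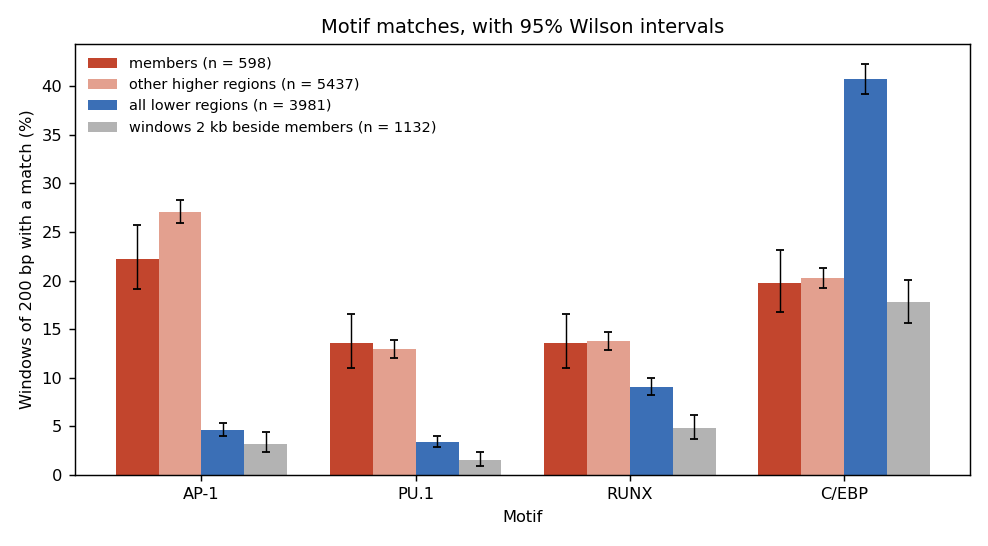
Bars give the share in percent of 200 bp windows with at least 1 match to each motif, for members, other higher regions, lower regions and windows 2 kb beside members, with 95% Wilson intervals as error bars. AP-1 and PU.1 stand well above the flanking windows in both higher groups, while the C/EBP share of members is close to that of the flanking windows and far below that of the lower regions.

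Few loci held a match to the same motif in every region. Counts by locus depend on the share of regions with a match and on the number of regions in a locus. They were not compared with what those give, and nothing particular to loci is read from them. At least 1 region with an AP-1 match occurred in 94 loci, at least 2 in 31, and a match in every region in Usp6nl and Pak1 alone. PU.1 occurred in 66 loci, RUNX in 68 and C/EBP in 89. In 44 loci both AP-1 and C/EBP occurred, and in 29 neither did. None of the 4 motifs was found in the central window of 273 members, and in 10 loci no region held any.

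Members with an AP-1 match had a median difference of 1.77 and those without one 1.45. The other higher regions had 1.75 and 1.54. With a C/EBP match the members had 1.44 and without one 1.53. These values are a description, since the difference had chosen the members.

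The next listed region beyond either end of a locus was mostly higher as well. Up to 25 kb away there were 59 such neighbours, of which 56 or 94.9% were higher. Up to 50 kb it was 121 of 131, and up to 100 kb 170 of 201, or 84.6%. For the other higher regions, the next listed region more than 12.5 kb away was higher in 83.9% within 25 kb, 80.8% within 50 kb and 76.8% within 100 kb. Off chromosome 10 the loci had 93.5%, 89.8% and 82.2%, and the other higher regions 82.5%, 79.3% and 75.01%. A neighbour between 2 loci is counted from both sides, and the direction of neighbouring regions was not tested against any model. Some neighbours were themselves members of another locus and so were higher by the rule. Within 25 kb this held for the pairs of loci at Sgk3, Emilin2 and Tle4. Other higher regions next to a locus have such neighbours too.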

How the data were processed

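ATAC-seq was performed on sorted cells, and depth per library is not part of the table. Per the labels and the study's methods, the authors aligned reads to mm10 with Bowtie2, called peaks with MACS2 and compared groups with DiffBind 2.14.0. The handling of duplicates and of the Tn5 offset is not given in the sources used here. Kept duplicates would raise strongly amplified regions, and a missing offset would shift edges by a few bases. The authors deposited log2 means of normalised reads over both groups, over WT and over dKO. Their columns of fold changes, p-values and false discovery rates were not used. Both deposited files were identical, so dKO-LAP* was not analysed here.

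Regions were sorted, joined and selected in Python 3.11.15 with pandas and scipy, by the rule given at the opening, and the procedure recovered all planted chains in simulated data. Coordinates are those of the deposited table. Sequences came from RefSeq's GRCm38.p6, and genes from GENCODE M21. Motifs were searched on both strands in the central 200 bp. No test was run, since the rule used the group means. Members and gene lists were chosen with earlier results of these data known. By the deposited differences, the loci named were the 8 off chromosome 10 with the most regions and the 8 with the largest median difference, the 4 and 4 on chromosome 10 by the same measures, with ties in the number of regions going to the larger median difference, and those within 10 kb of a listed gene. Flanking windows and neighbours beyond a locus were chosen after seeing the data. Alternatives changed the gap, the fewest regions, the threshold, the centring, the level filter, the motif window and the gene assignment.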

Additional observations from a re-analysis of the deposited data

How the results depend on the processing

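Most counts depended on how a locus was defined. The main rule gave 168 loci with 598 regions. A gap of 5 kb gave 57 loci with 192 regions and a gap of 25 kb gave 286 with 1062. Requiring 4 or more regions gave 50 loci with 244 regions, requiring a 2-fold gain in every region gave 91 with 315, and centring the differences on the median of all listed regions, 0.98, gave 92 with 320. The share of members within 1 kb of a TSS was 27.1% with a gap of 5 kb and 16.1% with protein-coding start sites alone, and the PU.1 share was 17.7% with a gap of 5 kb. In the whole region and in the central 100 bp the shares of members were 30.4% and 14.5% for AP-1, 18.9% and 9.20% for PU.1, 23.4% and 7.53% for RUNX, and 35.1% and 9.20% for C/EBP, since a longer window holds more sequence. The other higher regions had AP-1 shares of 36.7% and 18.01% in those windows. The other 25 alternative values stayed within the interval, or within 1.5 times the count, of the main value, among them the median difference, which ran from 1.48 to 1.56, and the share of loci on chromosome 10. No paired analysis was possible because single libraries have no values in the deposited table, and for the same reason no replicate could be left out. Depth limits regions near 1 read per library, whose differences are bounds.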
